A study of Mus musculus with 12 samples.

Results

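A set of 10 genes of transforming growth factor beta (TGF-beta) signalling were followed in mouse lung: the ligands Tgfb1, Tgfb2 and Tgfb3, the receptors Tgfbr1, Tgfbr2 and Tgfbr3, the integrin subunit Itgb6, the signal transducer Smad3, its inhibitor Smad7, and Tgfbi, a matrix protein named for its induction by the cytokine. They were taken by gene symbol, and all 10 were found among the 54532 genes of the deposited count table and had enough counts to be tested. Bulk RNA was sequenced from 12 lung samples, 6 labelled control and 6 labelled acute lung injury (ALI), an inflammatory leak of the air-blood barrier. The series design names drowning in seawater as the cause of injury, and its title a disturbed intestinal flora. Strain, sex and age of the mice, what the controls received, the dose and the time from injury to collection are not given in the sources used here, and the labels do not tell whether each sample is a mouse of its own. The p-values therefore reflect the spread among these 12 samples, part of which could be technical.

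TGF-beta is secreted in a latent form, folded inside its own propeptide and tied to the matrix by latent TGF-beta binding proteins. Release needs a second step, and in the lung the integrin alpha v beta 6 of epithelial cells is a well-known activator, which pulls on an RGD motif in the propeptides of the Tgfb1 and Tgfb3 products that the Tgfb2 product lacks. The freed ligand binds the type II receptor, which recruits and phosphorylates the type I receptor, and SMAD2 and SMAD3 then enter the nucleus with SMAD4. SMAD7, itself a target of the pathway, blocks the type I receptor. In lung the cytokine is known for driving matrix production, for restraining inflammation and for making the alveolar barrier leak after injury.

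In injured lungs, 8 of the 10 genes differed from control by the edgeR quasi-likelihood test with Benjamini-Hochberg adjustment over all genes tested, 6 higher and 2 lower, where 36.6% of the 16185 genes tested differed (18.9% higher and 17.7% lower). The ligands Tgfb1 and Tgfb3, the receptors Tgfbr1 and Tgfbr2, Itgb6 and Tgfbi rose, and the co-receptor Tgfbr3 and the inhibitor Smad7 fell. Tgfb2 and Smad3 were not called. In 7 genes the range of the 6 ALI samples did not touch that of the 6 controls, as in 21.3% of all genes tested; 5 lay above (13.1% of all) and 2 below (8.25% of all). The median absolute log2 fold change was 0.81 over the 10 genes and 0.31 over all genes tested. Levels below are counts scaled to library size by TMM (CPM), given as the lowest, the median and the highest of 6 samples, and log2 fold changes compare ALI with control, each with the standard error (SE) of the edgeR fit.

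**Figure D1:**
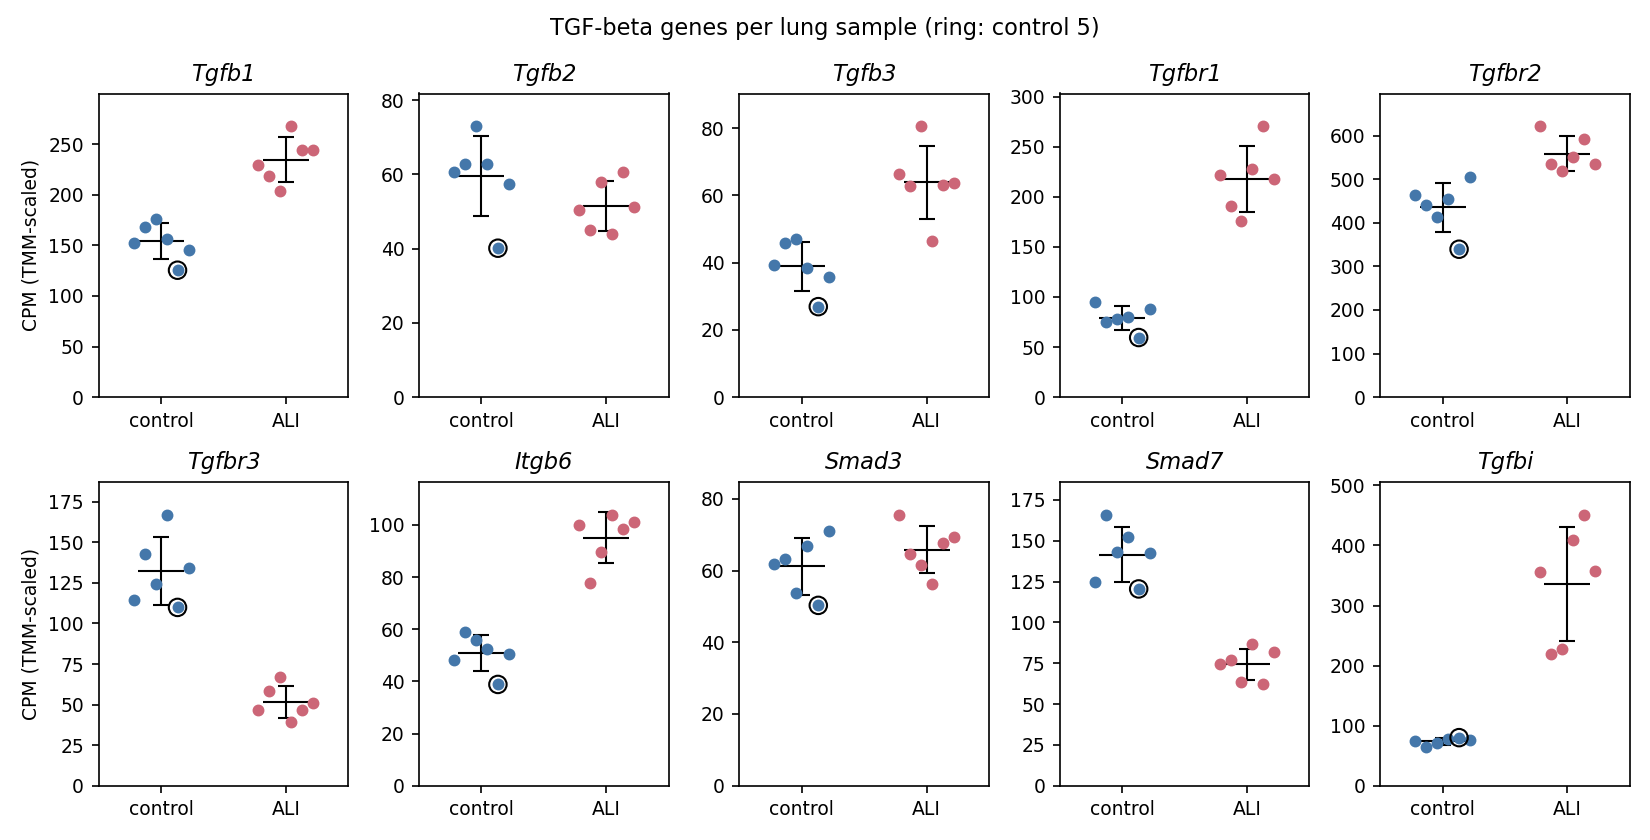
Level of each of the 10 genes in every sample, in CPM on linear axes from 0, for 6 control (blue) and 6 ALI (red) lungs in replicate order; the horizontal bar is the mean and the whiskers the SD, and the ring marks control 5. The groups stand apart in 7 panels and overlap for Tgfb2, Tgfb3 and Smad3, and control 5 is the lowest control in 9 of 10.

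Depth was 15707937 to 19706494 counts per sample. Control 5 stood apart: markers of adipose tissue (Ucp1, Adipoq, Cidea, Plin1 and Cfd) summed to 4712 CPM there against 0.53 to 18.9 CPM in the other controls, and to 529 CPM in ALI 2 against 2.43 to 5.31 CPM in the other ALI samples. It was the lowest control for 9 of the 10 genes and the highest for the remaining one, Tgfbi, so values without it are given where they matter. Without control 5 and ALI 2 the same 6 genes were called higher, Tgfbr3 and Smad7 lower, and Tgfb2 was called as well. In bulk lung, fewer cells of a type and less RNA per cell cannot be told apart.

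The promoters of the 5 genes that rose with no overlap between the groups are shown. They were picked for that rise alone, which 13.1% of all genes tested shared. Each is given as the 250 bases before the RefSeq transcript start on GRCm38.p6, written 5′ to 3′ on the gene's own strand. Capitals mark every match, on either strand, to the motifs searched: GGGCGG (read as CCGCCC on the other strand), a GC box bound by SP-family factors, CAGACA, which holds the CAGA core bound by SMAD3, and TGANTCA, the AP-1 site; the SMAD palindrome GTCTAGAC was searched as well. The windows lie at chr7:25686752-25687001 (Tgfb1, plus strand), chr4:47352972-47353221 (Tgfbr1, plus strand), chr9:116175364-116175613 (Tgfbr2, minus strand), chr2:60722604-60722853 (Itgb6, minus strand) and chr13:56609336-56609585 (Tgfbi, plus strand).
Tgfb1: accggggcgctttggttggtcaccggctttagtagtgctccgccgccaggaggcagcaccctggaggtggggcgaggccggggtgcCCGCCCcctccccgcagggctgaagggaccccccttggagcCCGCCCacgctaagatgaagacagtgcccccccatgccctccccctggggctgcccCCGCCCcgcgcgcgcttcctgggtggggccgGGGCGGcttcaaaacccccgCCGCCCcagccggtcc
Tgfbr1: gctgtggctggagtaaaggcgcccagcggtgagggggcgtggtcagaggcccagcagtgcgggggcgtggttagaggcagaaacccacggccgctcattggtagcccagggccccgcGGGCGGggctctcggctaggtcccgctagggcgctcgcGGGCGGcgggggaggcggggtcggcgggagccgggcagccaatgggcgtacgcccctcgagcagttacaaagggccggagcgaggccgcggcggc
Tgfbr2: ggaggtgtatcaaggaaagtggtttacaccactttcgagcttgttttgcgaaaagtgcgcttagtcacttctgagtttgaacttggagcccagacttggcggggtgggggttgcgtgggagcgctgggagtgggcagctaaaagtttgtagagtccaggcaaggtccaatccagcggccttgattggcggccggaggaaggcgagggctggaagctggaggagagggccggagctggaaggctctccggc
Itgb6: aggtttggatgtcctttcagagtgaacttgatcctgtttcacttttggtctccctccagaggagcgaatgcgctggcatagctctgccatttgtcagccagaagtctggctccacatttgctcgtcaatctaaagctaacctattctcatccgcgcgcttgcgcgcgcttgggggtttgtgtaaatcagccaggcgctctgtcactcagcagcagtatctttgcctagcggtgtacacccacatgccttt
Tgfbi: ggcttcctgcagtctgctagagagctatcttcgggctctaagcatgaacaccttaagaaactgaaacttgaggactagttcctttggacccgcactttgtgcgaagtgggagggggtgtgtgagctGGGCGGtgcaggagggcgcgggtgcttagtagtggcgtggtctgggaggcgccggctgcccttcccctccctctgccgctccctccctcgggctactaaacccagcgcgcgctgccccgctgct
The Tgfb1 window held 5 GGGCGG matches, at 164, 123, 67, 36 and 16 bases before the start, the Tgfbr1 window 2 and the Tgfbi window 1, while those of Tgfbr2 and Itgb6 held 0; of 32817 RefSeq promoters of the same length, 32.7% held at least 1. None of the 5 windows held CAGACA (17.1% of promoters), GTCTAGAC (0.168%) or TGANTCA (6.75%), so no matches of different motifs overlapped. Windows of the genes not called held matches as well. The Tgfb2 window, chr1:186705990-186706239 on the minus strand, held 1 CAGACA match, 204 bases before the start. The Smad3 window, chr9:63757995-63758244 on the minus strand, held 2 GGGCGG matches, 234 and 171 bases before the start. A match describes letters only, and its absence says only that these letters are not in this window. Further starts of Itgb6 and Tgfbr1 lie 48950 and 32994 bases from the GENCODE gene start and are not shown; the further Tgfbr1 window, chr4:47385966-47386215 on the plus strand, held 1 CAGACA match, 203 bases before its start, and that of Itgb6 held 0 matches to any of the motifs. Windows were read for 7 of the 10 genes and not for Tgfb3, Tgfbr3 and Smad7. The chromosome of Smad7 was left out when the windows of these genes were read.

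Of the 3 ligands, Tgfb1 and Tgfb3 rose and Tgfb2 was not called. Tgfb1 (ENSMUSG00000002603, chromosome 7, 25687002 to 25705077 on GRCm38, plus strand), the main isoform of immune and many other cells, had 125, 155 and 176 CPM in controls and 204, 237 and 268 CPM in ALI. Every ALI sample lay above every control, with ALI 3 lowest and ALI 4 highest among the injured lungs. Its log2 fold change was 0.61 ± 0.09 (SE, 1.52-fold, adjusted p = 0.000146).

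Tgfb3 (ENSMUSG00000021253, chromosome 12, 86056745 to 86079041, minus strand), an isoform known from the developing palate and lung, had 26.9, 38.9 and 47.0 CPM in controls and 46.3, 63.4 and 80.6 CPM in ALI. Its groups touched at a single point, ALI 4, which fell just under control 3 and was at once the ALI sample with the most Tgfb1. The change was 0.71 ± 0.14 log2 units (1.64-fold, adjusted p = 0.00118). Of its exon bases, 12.4% also belong to genes annotated on the opposite strand, and since no source says whether counting used strand, reads there cannot be assigned with certainty.

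Tgfb2 (ENSMUSG00000039239, chromosome 1, 186622792 to 186705989, minus strand), the isoform without an RGD motif, had 40.1, 61.7 and 73.0 CPM in controls and 43.9, 50.8 and 60.6 CPM in ALI. All 6 ALI values lay inside the control range, whose floor was set by control 5. The log2 fold change was -0.21 ± 0.13 (adjusted p = 0.226). Without control 5, whose fellow controls held 57.5 to 73.0 CPM, it was -0.30 and was called lower (adjusted p = 0.0152), so the absence of a call rests on that sample.

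Per length, in CPM per kb of the deposited gene length, the summed ligand level was 52.4 ± 7.50 (SD, n = 6) in controls and 74.3 ± 2.68 in ALI, and the groups did not overlap (39.8 to 61.5 and 69.7 to 77.6). Tgfb1 made up the larger part of it in every sample, 56.9 to 62.6% in controls and 54.5 to 71.4% in ALI. The share of Tgfb2 went from 17.4 to 20.5% in controls to 10.2 to 13.5% in ALI, with no overlap even though the Tgfb2 level itself overlapped. The share of Tgfb3 was 20.01 to 23.5% in controls and 18.4 to 32.1% in ALI, lowest in ALI 4 and highest in ALI 3. These shares are descriptions and were not tested.

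**Figure D2:**
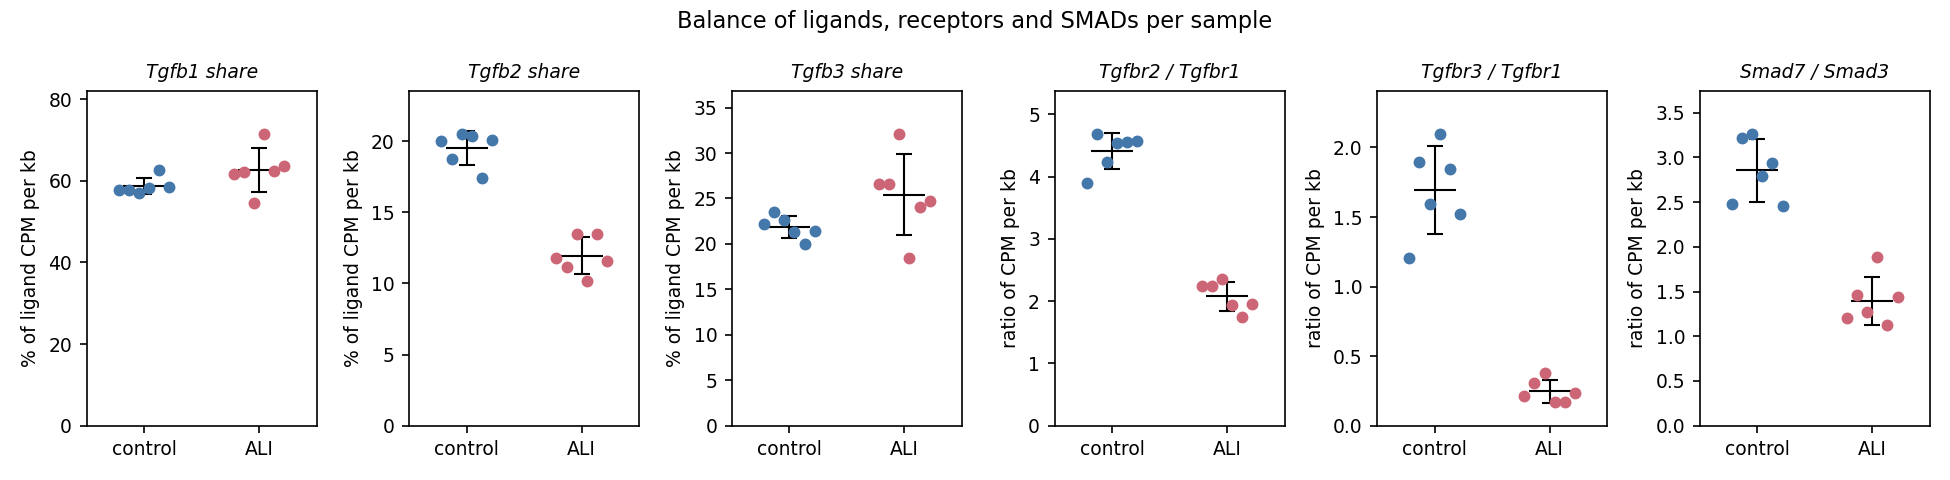
Share of each ligand in the summed ligand level (percent of CPM per kb) and ratios between receptors and between SMADs (CPM per kb), per sample for 6 control (blue) and 6 ALI (red) lungs on linear axes from 0; bars are means and whiskers SDs. The Tgfb2 share, both receptor ratios and the ratio of Smad7 to Smad3 separate the groups completely, and the Tgfb1 and Tgfb3 shares overlap.

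The receptors changed in opposite directions. Tgfbr1 (ENSMUSG00000007613, chromosome 4, 47353222 to 47414931, plus strand), the type I receptor kinase that phosphorylates SMAD2 and SMAD3, had 59.5, 78.8 and 94.7 CPM in controls and 176, 220 and 271 CPM in ALI. The lowest injured lung, ALI 3, lay far above the highest control, control 1. It rose by 1.46 ± 0.12 log2 units (2.74-fold, adjusted p = 5.49e-07).

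Tgfbr2 (ENSMUSG00000032440, chromosome 9, 116084293 to 116175360, minus strand), the ligand-binding type II kinase, had 339, 447 and 505 CPM in controls and 518, 543 and 622 CPM in ALI. The groups came close, between control 6 and ALI 3, without overlapping. The rise was 0.36 ± 0.10 log2 units (1.28-fold, adjusted p = 0.00934), the smallest among the 8 genes called.

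Tgfbr3 (ENSMUSG00000029287, chromosome 5, 107106570 to 107289629, minus strand) encodes betaglycan, a co-receptor without kinase activity that presents ligand, above all the product of Tgfb2, to the type II receptor and whose shed ectodomain traps it. It had 110, 129 and 167 CPM in controls and 39.4, 48.8 and 67.0 CPM in ALI. All injured lungs lay below all controls, ALI 3 and ALI 2 being the highest of them and ALI 4 the lowest. The gene fell 2.57-fold (log2 fold change -1.36 ± 0.13, adjusted p = 2.52e-06).

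The order of receptor levels per length was different in the injured group. In controls it ran Tgfbr2 (53.2 ± 6.85 CPM per kb, SD, n = 6), Tgfbr3 (20.2 ± 3.21) and Tgfbr1 (12.1 ± 1.84), and in ALI Tgfbr2 (68.2 ± 4.90), Tgfbr1 (33.3 ± 5.04) and Tgfbr3 (7.87 ± 1.5). Tgfbr3 exceeded Tgfbr1 in each control, by a ratio of 1.21 to 2.10, and lay below it in each injured lung, at 0.171 to 0.381. The ratio of Tgfbr2 to Tgfbr1 was 3.90 to 4.68 in controls and 1.75 to 2.36 in ALI, so the type II transcript stayed the more abundant of the pair. These ratios were not tested.

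Markers of cell types moved alongside. The 7 capillary endothelial markers all fell, from a sum of 2125 to 2737 CPM in controls to 926 to 1418 CPM in ALI. The 6 alveolar fibroblast markers all fell (5105 to 6223 and 1940 to 3727 CPM), and so did all 4 pericyte markers (350 to 600 and 294 to 359 CPM). The pericyte sums overlapped between groups only through control 5, the lowest control, and the other controls held 458 CPM or more. The 7 macrophage markers all rose, from a sum of 133 to 204 CPM to 725 to 1084 CPM, and the 6 neutrophil markers all rose (74.8 to 126 and 152 to 359 CPM). No marker in these lists was at 0 in all samples. The part of these shifts in the changes of the receptors, the ligands, Smad7 and Tgfbi was not tested.

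Itgb6 (ENSMUSG00000026971, chromosome 2, 60598292 to 60722643, minus strand) encodes the beta 6 subunit, which pairs only with alpha v and is made by epithelium, at low levels in healthy lung and more after injury. It had 38.8, 51.5 and 58.8 CPM in controls and 77.7, 99.1 and 104 CPM in ALI. All injured lungs stood above all controls, with ALI 2 the lowest of the injured and the other ALI samples between 89.7 and 104 CPM. The rise was 0.90 ± 0.10 log2 units (1.87-fold, adjusted p = 9.71e-06). Its partner Itgav had 87.6 ± 14.4 CPM in controls and 97.9 ± 7.59 CPM in ALI and was not called (log2 fold change 0.16 ± 0.11, adjusted p = 0.267).

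Markers of epithelial cell types went in different directions. The summed club cell markers, of secretory cells of the airways, were lower in ALI (9770 to 26080 CPM in controls, with control 5 the highest and the others at 13784 CPM or less, and 2058 to 5445 CPM in ALI), where Scgb1a1 (-2.21 ± 0.30) and Cyp2f2 (-1.73 ± 0.27) fell on the log2 scale and the other 2 of 4 genes were not called. The summed alveolar type 2 markers overlapped between the groups (21357 to 28272 CPM in controls and 19196 to 24397 CPM in ALI; 2 of 7 genes higher, 1 lower), and the summed alveolar type 1 markers were lower in ALI (3811 to 6378 and 3157 to 3783 CPM; 6 of 7 genes lower), with control 5 the lowest control and the others at 5445 CPM or more. In the list of injury-associated alveolar epithelium, 4 of 6 genes rose (Krt8, Cldn4, Sfn and Areg) and Krt19 fell, while the sum, set mainly by Krt7, Krt8 and Krt19, overlapped (691 to 839 and 731 to 797 CPM). Their part in the rise of Itgb6 was not tested.

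Of the SMADs, the inhibitor fell and the transducers were not called. Smad3 (ENSMUSG00000032402, chromosome 9, 63646767 to 63757994, minus strand), which carries the signal to DNA, had 50.3, 62.5 and 71.2 CPM in controls and 56.3, 66.2 and 75.6 CPM in ALI. Of the ALI samples 5 lay inside the control range and ALI 1 above it. The log2 fold change was 0.11 ± 0.10 (adjusted p = 0.424). Smad2 and Smad4, its partners, were not called either, at 42.2 ± 3.70 and 43.2 ± 3.41 CPM for Smad2 and 116 ± 10.2 and 108 ± 6.71 CPM for Smad4 in control and ALI.

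Smad7 (ENSMUSG00000025880, chromosome 18, 75367529 to 75395935, plus strand), which recruits ubiquitin ligases to the type I receptor, had 120, 143 and 166 CPM in controls and 62.4, 75.6 and 86.4 CPM in ALI. No injured lung reached the lowest control, control 5. The gene fell 1.91-fold (log2 fold change -0.93 ± 0.10, adjusted p = 7.41e-06). Per length the ratio of Smad7 to Smad3 was 2.45 to 3.26 in controls and 1.13 to 1.88 in ALI, with Smad7 the more abundant in every sample; it was not tested.

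Tgfbi (ENSMUSG00000035493, chromosome 13, 56609523 to 56639562, plus strand), a secreted protein that binds collagens and integrins and is also made by macrophages, showed the steepest change of the 10 genes. It had 64.3, 75.6 and 80.0 CPM in controls and 219, 356 and 452 CPM in ALI. The controls were tight and the injured lungs were not: ALI 2 and ALI 3 held 219 and 227 CPM and the other ALI samples 356 to 452 CPM, all above every control. The rise was 2.19 ± 0.17 log2 units (4.56-fold, adjusted p = 2.81e-07). Per length it was 19.6 ± 1.49 CPM per kb in controls, close to Tgfbr3, and 89.2 ± 25.2 CPM per kb in ALI, the highest of the 10 genes on average but below Tgfbr2 in 2 of 6 samples.

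The same injured lungs tended to sit at the ends of several genes. ALI 2 and ALI 3 had the lowest levels of Tgfbi, Tgfbr1 and Itgb6 and the highest of Tgfbr3, and ALI 4 and ALI 5 had the highest Tgfb1 and Tgfbi. Smad7 did not follow this split: ALI 5 (62.4 CPM) and ALI 3 (63.6 CPM) were its lowest injured lungs and ALI 4 (86.4 CPM) its highest. At the lower end of the levels per length, Itgb6 was the least abundant of the 10 genes in controls (7.15 ± 0.98 CPM per kb) and Tgfbr3 in ALI. Neighbours in the order were often not separable: in controls Smad7 exceeded Tgfb1 in 4 of 6 samples, Tgfbr3 exceeded Tgfbi in 4, Tgfbr1 exceeded Tgfb3 in 4 and Tgfb3 exceeded Smad3 in 3. In ALI Tgfb3 exceeded Smad7 in 5 of 6 samples, Smad7 exceeded Itgb6 in 5 and Tgfb2 exceeded Tgfbr3 in 4, while Tgfbr2, Tgfb1, Tgfbr1 and Tgfb3 kept that order in all 6.

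**Figure D3:**
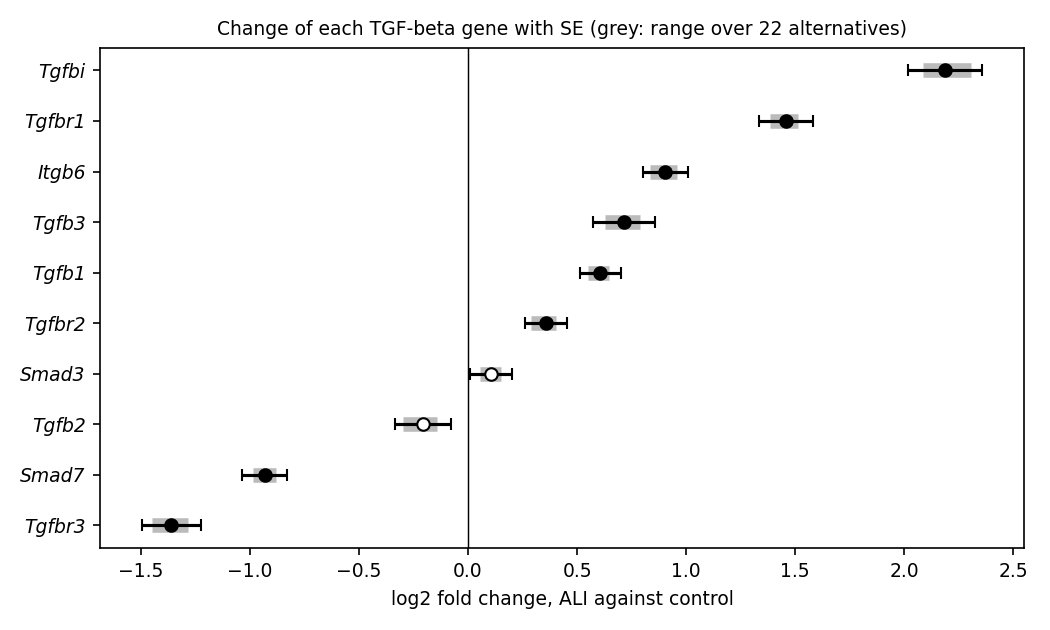
Log2 fold change of each gene, ALI against control, from the edgeR fit over 12 samples, with SE as whiskers; filled points passed the adjusted p threshold of 0.05, open points did not, and the grey band spans the lowest and highest value over 22 alternative analyses. Values run from -1.36 for Tgfbr3 to 2.19 for Tgfbi, and no grey band crosses 0.

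Genes with the most similar variation between samples were sought among 10596 genes averaging 10 CPM or more, as the highest Spearman rho over 12 samples after each group's mean was removed, which describes these samples and carries no test. For Tgfb1 they included Tapbp, which loads peptides on MHC class I (rho 0.95, and 0.93 without control 5) and Tbc1d10b (0.94 and 0.78). For Tgfbi they were Sema4a (0.94 and 0.95), Socs3, an inhibitor of cytokine signalling (0.92 and 0.93), and Sgpl1 (0.91 and 0.89). For Itgb6 they were Irf2bp1 (0.94 and 0.84), which fell in ALI while Itgb6 rose, Plxdc1 (0.91 and 0.85) and Chpf (0.90 and 0.78). The 5 genes named for Tgfb1 and Tgfbi were all called higher in ALI, as were 18.9% of all genes tested. Of those named for Itgb6, Irf2bp1 was called lower and Plxdc1 and Chpf were not called.

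Beyond the 10 genes, 74 others of the pathway in 6 lists were read from the same fit; all were tested, and 29 rose and 19 fell, 64.9% called where 36.6% of all genes tested were called. Their median log2 fold change was 0.12, and -0.06 over all genes tested. The lists were chosen with earlier results of these data known, so these counts describe the pathway and are no test of it. Without control 5 and ALI 2, 48 were called, with 10 higher and 3 lower in latency and release, 2 and 4 among other receptors, 4 and 3 among SMADs and regulators, 1 and 1 among extracellular binding proteins, 2 and 2 in the activin branch and 9 and 7 among induced genes. Levels of these genes are means ± SD over 6 samples.

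Of 17 genes of latency and release, 10 rose and 3 fell, with a median log2 fold change of 0.42. Mmp14, a membrane protease able to release latent TGF-beta, rose from 82.1 ± 21.5 to 402 ± 76.0 CPM (2.29 ± 0.18, adjusted p = 3.42e-07), and Fbn1, the fibrillin to which latent complexes are anchored, rose by 1.07 ± 0.17 (176 ± 43.7 to 369 ± 41.5 CPM; 20.1% of its exon bases overlap a gene on the opposite strand). Ltbp4, a binding protein of latent Tgfb1 that also serves elastic fibres, fell from 1171 ± 236 to 291 ± 54.0 CPM (-2.01 ± 0.16, adjusted p = 4.00e-07). Lrrc32, which holds latent ligand on the surface of regulatory T cells, platelets and endothelium, fell from 73.0 ± 11.3 to 43.1 ± 3.10 CPM (-0.76 ± 0.10). The summed platelet markers were lower as well (47.7 to 73.4 CPM in controls and 32.5 to 46.5 CPM in ALI; 2 of 5 genes lower, Ppbp and Itga2b, and Pf4 at 13.1 and 16.6 CPM not called). So were the capillary endothelial markers (2125 to 2737 and 926 to 1418 CPM). T cell markers overlapped (32.6 to 48.2 and 31.4 to 48.2 CPM), and their list held no gene particular to regulatory T cells. The part of these cell types in the fall of Lrrc32 was not tested.

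Some further release factors were named after their values were seen. Itgb8, whose product activates TGF-beta with alpha v in other cells, rose from 2.56 ± 0.99 to 5.04 ± 1.84 CPM (0.97 ± 0.30, adjusted p = 0.0191). Itgb5 rose by 0.36 ± 0.11 (adjusted p = 0.0215), a call lost without ALI 6 (adjusted p = 0.0560). Thbs1, which can open the latent complex, rose from 101 ± 22.9 to 160 ± 26.8 CPM (0.66 ± 0.15), and Furin, the protease that cleaves the propeptide, from 171 ± 27.2 to 277 ± 35.4 CPM (0.70 ± 0.12).

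Among 7 other receptors and receptor regulators, 3 fell and 2 rose. Eng, or endoglin, and Acvrl1, the type I receptor ALK1 of endothelial cells, fell from 950 ± 119 to 458 ± 49.5 CPM (-1.05 ± 0.11) and from 897 ± 148 to 424 ± 68.7 CPM (-1.08 ± 0.13). Bambi, a pseudoreceptor that dampens signalling, fell from 25.2 ± 4.46 to 15.6 ± 0.71 CPM (-0.69 ± 0.11, adjusted p = 0.000227). Dab2, an adaptor between receptors and SMADs, rose from 59.4 ± 11.9 to 122 ± 13 CPM (1.04 ± 0.14), and Cd109, an inhibitory co-receptor named after its values were seen, from 2.22 ± 0.74 to 5.61 ± 0.80 CPM (1.34 ± 0.23). Eng and Acvrl1 fell beside the capillary markers given above.

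Of 15 SMADs and SMAD regulators 5 rose, 3 fell and 7 were not called. The number that rose was 3 without control 2, control 3, ALI 5 or ALI 6. It was 4 without control 4, control 5, ALI 1, ALI 2 or ALI 4. The number that fell was 2 without control 1, control 4, ALI 3, ALI 4 or ALI 6. Pmepa1, a TGF-beta target that traps receptor-regulated SMADs, rose from 85.5 ± 8.95 to 178 ± 13.3 CPM (1.06 ± 0.08, adjusted p = 2.81e-07), and the SMAD co-repressors Tgif1 and Skil rose from 15.5 ± 2.06 to 36.2 ± 9.80 CPM (1.22 ± 0.16) and from 102 ± 13.6 to 163 ± 23.5 CPM (0.68 ± 0.11). The co-repressors Tgif2 (-0.24 ± 0.31) and Ski (-0.04 ± 0.13) were not called. Smurf2, a ubiquitin ligase that works with SMAD7, fell from 225 ± 28.0 to 158 ± 10.6 CPM (-0.51 ± 0.09, adjusted p = 0.000543). The related ligase Smurf1, named after its values were seen, was called higher, at 92.3 ± 9.82 and 110 ± 11.8 CPM (0.25 ± 0.09, adjusted p = 0.0463). That call was lost at least without control 2, control 3, ALI 5 or ALI 6. Pmepa1, Tgif1 and Skil thus rose while Smad7, which is also a feedback inhibitor, fell.

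Of 5 proteins that bind TGF-beta outside cells, A2m rose and Fmod fell, and Dcn, Bgn and Aspn were not called. A2m, a protease inhibitor, stayed low, at 0.18 ± 0.14 and 1.59 ± 0.55 CPM (3.12 ± 0.47). Its controls held 0 to 0.39 CPM and its ALI samples 0.96 to 2.37 CPM, so it passed the count filter through the ALI group alone. Its rise is therefore given as a description, although the counts of called genes include it. Fmod, or fibromodulin, went from 18.3 ± 3.23 to 13.2 ± 2.57 CPM (-0.46 ± 0.15, adjusted p = 0.0237), a call lost with any of control 3, control 4, ALI 1, ALI 4 or ALI 5 left out (adjusted p = 0.0507 to 0.0583), which leaves A2m the only call in the list; without ALI 3, 2 of the 5 fell. In the related activin branch 3 of 6 genes rose and 2 fell. Inhba, the subunit of activin A, rose from 1.73 ± 0.88 to 81.2 ± 35.3 CPM (5.57 ± 0.41, 47.4-fold, adjusted p = 4.87e-07), with no overlap between groups. Inhbb rose by 0.47 ± 0.14, Fstl3, an activin antagonist of which 47.3% of exon bases overlap a gene on the opposite strand, fell by 0.49 log2 units, and the receptor Acvr2a had a log2 fold change of -0.40 ± 0.14 (adjusted p = 0.0385) that lost its call with any of 8 samples left out, all but control 3, control 5, ALI 3 and ALI 5 (adjusted p = 0.0697 to 0.0907). Fst, also an activin antagonist, went the other way from Fstl3, from 4.47 ± 1.92 to 7.85 ± 2.27 CPM (0.82 ± 0.30, adjusted p = 0.0466). It was named after its values were seen. Its call was lost without control 1, control 3, control 6, ALI 2, ALI 4, ALI 5 or ALI 6. Without control 1, control 6, ALI 2, ALI 4 or ALI 6, 3 genes of the branch were called, 2 higher and 1 lower.

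Genes known to be induced by TGF-beta went both ways: of 24, 8 rose, 7 fell and 9 were not called, with a median log2 fold change of -0.04. Col3a1 and Col1a1, fibrillar collagens, rose from 612 ± 142 to 2077 ± 172 CPM (1.76 ± 0.15, adjusted p = 7.25e-07) and from 463 ± 102 to 1356 ± 187 CPM (1.55 ± 0.16), and Timp1, an inhibitor of matrix proteases, from 3.74 ± 1.67 to 19.73 ± 2.39 CPM (2.41 ± 0.23). The other risers, named after their values were seen, were Col1a2 (1.29), Fn1 (1.31), Tnc (1.46) and Lox (1.34), all of the matrix, and the cell cycle inhibitor Cdkn1a (1.06), given as log2 fold changes. Pdgfb, a growth factor made by endothelium among other cells, fell from 317 ± 45.2 to 163 ± 8.88 CPM (-0.96 ± 0.10, adjusted p = 3.13e-06). Some targets often used to read the pathway were not called higher: Ctgf (also called Ccn2) fell from 332 ± 63.9 to 237 ± 52.2 CPM (-0.49 ± 0.16, adjusted p = 0.0254; 23.2% of its exon bases overlap a gene on the opposite strand) and Nox4 fell from 118 ± 24.2 to 62.3 ± 9.42 CPM (-0.92 ± 0.14). Acta2, the actin of smooth muscle and myofibroblasts, was at 206 ± 36.0 and 150 ± 43.6 CPM (-0.46 ± 0.17, adjusted p = 0.0477), a call lost with any of 9 samples left out, all but control 3, ALI 1 and ALI 3 (adjusted p = 0.0543 to 0.105). The call of Ctgf was lost without control 2, control 6, ALI 1 or ALI 2 (adjusted p = 0.05001 to 0.0641). The remaining fallers were Cdkn2b, a cell cycle inhibitor like Cdkn1a (-0.57, adjusted p = 0.000157), the lipid kinase Sphk1 (-0.62, adjusted p = 0.0033) and the transcription factor Snai2 (-0.51, adjusted p = 0.0141), given as log2 fold changes. Besides Pdgfb, the fallers were named after their values were seen.

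**Figure D4:**
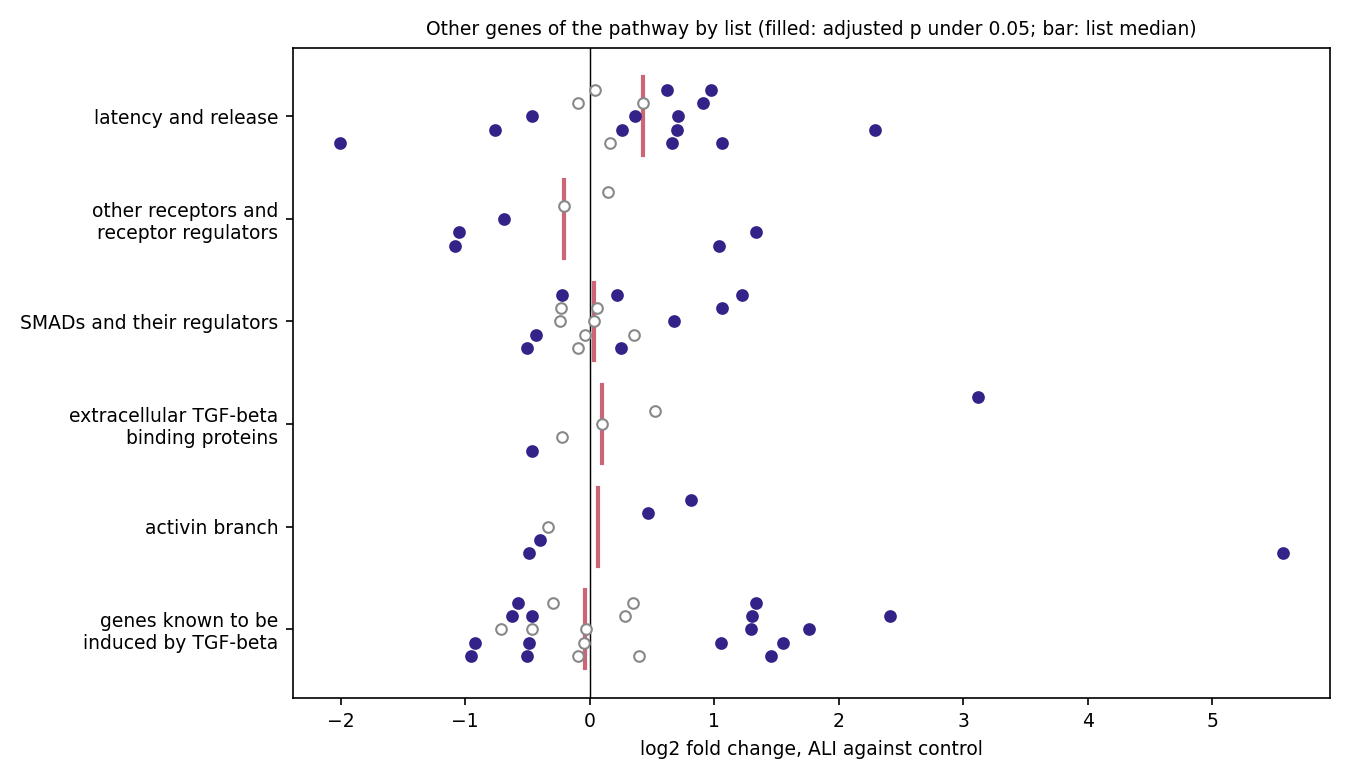
Log2 fold change, ALI against control, of 74 other pathway genes in 6 lists; each point is a gene, filled where the adjusted p was under 0.05 and open otherwise, points are spread vertically for legibility, and the red bar is the list median. Latency and release genes lie mostly right of 0 (10 higher, 3 lower), and genes known to be induced by TGF-beta fall on both sides (8 higher, 7 lower), with Inhba at 5.57 farthest out.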

How the data were processed

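Per the labels' protocols, total RNA from 12 mouse lung samples was isolated by TRIzol, and NEBNext Ultra libraries were run on a NovaSeq instrument. The authors deposited whole-number counts per gene, not normalised; HISAT2, featureCounts, fastp and the build GRCm38 (mm10) appear in the submitters' processing notes without versions or settings. Strand and multi-mapping settings are not given in the sources used here. Deposited gene lengths, in bases, the other value used here, equalled the exon union of GENCODE M21 for all 10 genes; deposited starts did so for 1, so coordinates are those of M21. The table held 0 lines without an ID. Replicates differed by more than sampling noise in all 30 pairs (chi-square per degree of freedom 6.91 to 239). The pairs with control 5 ran from 213 to 239 and the other pairs from 6.91 to 46.4.

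Counts were filtered (filterByExpr, minimum count 10), scaled by TMM and tested with edgeR 4.0.16 (robust quasi-likelihood, no covariate, R 4.3.3), with p adjusted over 16185 genes and a threshold of 0.05. The pipeline was tested on simulated data. Alternatives used DESeq2 1.42.0, limma 3.58.1 and sva 3.50.0, other scalings and filters, the replicate block, and samples left out. Named were the 10 genes, up to 4 called genes with the smallest p of each pathway list, and up to 3 genes most like Tgfb1, Tgfbi and Itgb6. A further 19 were named after their values were seen, and Fst and Smurf1 were added to these. Some genes that these rules pick are not reported here. Members and lists were chosen with earlier results of these data known.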

Additional observations from a re-analysis of the deposited data

Results flagged for a closer look

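Of 102 groups of 6 values examined, 3 held a sample far from the others by Dixon's ratio, where chance gives about 1 in 20. Control 5 had 92.1 CPM of Fbn1, the next control 170 CPM; and 36.0 CPM of Dab2, the next 59.1 CPM. Without control 5 the log2 fold change of Fbn1 was 0.93 and that of Dab2 0.93, both still called. ALI 3 had 80.0 CPM of Nox4, the next ALI sample 62.3 CPM. Among the 10 TGF-beta genes no group held such a sample.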

How the results depend on the processing

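Over 22 alternatives, 216 of 220 log2 fold changes of the 10 genes kept their direction and their side of the threshold, and the number called was 8 or 9. The exception was Tgfb2, which was called lower without control 5, without control 5 and ALI 2 (-0.26, adjusted p = 0.0350), with 1 surrogate variable (-0.24, adjusted p = 0.0309) and with limma-voom (-0.29, adjusted p = 0.0105). With one sample left out, 5169 to 7223 genes, 8 to 9 of the 10 and 39 to 51 of the 74 pathway genes were called. Of the values of other named genes, Fst and Smurf1 not included, 862 of 901 kept direction and call. Smad2, near 0, ran from -0.0027 (without control 4) to 0.0745 (without ALI 3) when single samples were left out. Within lists, calls among SMADs and their regulators dropped from 8 to 5 with no filter, and those of extracellular binding proteins from 2 to 1 with the filter of 1 CPM in 6 samples, under which A2m was not tested.

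Groups share replicate numbers, but same-numbered samples did not deviate together (correlations from -0.27 to 0.27, 1 of 6 above 0.1), so the numbers were not taken as pairs. With the replicate block 4822 genes, 8 of the 10 and 39 of the 74 were called, with 6 higher in place of 10 in latency and release; Itgb8, Itgb5, Fmod, Acvr2a and Acta2 were not (adjusted p = 0.0519 to 0.119). Library size alone also ended the call of Acvr2a (adjusted p = 0.0861) and Acta2 (adjusted p = 0.0656), and limma-voom called Smad4 lower (-0.16, adjusted p = 0.0371). Acta2 was not called without a filter, with 1 surrogate variable or without control 5 and ALI 2 either (adjusted p = 0.0531, 0.0540 and 0.156). Counting error is small at the levels of the 10 genes. It is larger for A2m, Inhba, Cd109 and Itgb8, which had the lowest CPM in controls among the called pathway genes. A2m held 0 to 0.39 CPM there and Inhba 0.66 to 2.99 CPM.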
